A study of Mus musculus with 6 samples.

Results

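The genes described here are the insulin-like growth factor (IGF) axis of mouse embryonic fibroblasts. They are the ligand gene Igf1, its receptor gene Igf1r, the adaptor genes Irs1 and Irs2, and the 6 IGF binding protein genes Igfbp2 to Igfbp7. They were found by their symbols in a table of RNA sequencing values, which made 10 of its 26231 genes. The table held 3 libraries named MEF WT (control) and 3 named MEF Nf2 KO, made from fibroblast lines of FVB embryos at about day 14 by the labels (the methods give the day before). Per the study's methods, the embryos carried Nf2 alleles flanked by loxP sites, and all cells were immortalized with a lentivirus for SV40 large T antigen. The line named WT then received a lentivirus expressing GFP from the CMV promoter, and the line named Nf2 KO received one expressing Cre and GFP from that promoter, so the control also carries the floxed alleles. Cells of both lines grew in DMEM with 10% FBS and were kept without serum for 24 h before RNA extraction. Each genotype was 1 line, and no source says that its libraries came from separate cultures, so p-values measure only the spread between these libraries, which may be technical.

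IGF1 and IGF2 are secreted growth factors that bind the IGF1 receptor, a tyrosine kinase. The activated receptor recruits the adaptors IRS1 and IRS2, which pass the signal to PI3 kinase, AKT and mTOR, and AKT in turn keeps FOXO transcription factors out of the nucleus. IGF binding proteins hold the ligands outside the cell, and proteases such as PAPP-A and PAPP-A2 cleave them and release the ligand. Fibroblasts are a common source of IGF1, IGF2 and several of the binding proteins.

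The binding protein genes differed in opposite directions between the lines. Igfbp2 was almost absent from MEF WT and was read in every library labelled MEF Nf2 KO, and Igfbp5, its neighbour on chromosome 1, was 22.4-fold (95% exact counting interval 11.5 to 49.9) lower under the MEF Nf2 KO label in replicate 1 and 27.1-fold (19.6 to 38.3) lower in replicate 3, with 2 reads left in replicate 2. Igfbp6 and Igfbp4 were lower within every replicate number, Igfbp3 in replicates 1 and 3, while Igf1, Igf1r, Irs1 and Irs2 were higher. Igfbp7, by far the most abundant member, did not differ by more than the spread between libraries. Outside the 10 members, the protease gene Pappa2 rose, and Igf2 was lower in each library labelled MEF Nf2 KO than in any of MEF WT.

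The values are RPKM, in which a gene's reads are divided by its exon length and by the sequencing depth. Read numbers were recovered from the steps between low values and gave depths of 13453481 to 73053198 reads, replicate 3 of both lines, marked 2018 in the labels, being the deepest. Nf2 RNA was 14.3, 13.7 and 13.1 RPKM in MEF WT replicates 1, 2 and 3, and 15.4, 12.9 and 13.9 RPKM under the MEF Nf2 KO label. Nf2 RNA was therefore not lower under the knockout label (adjusted p = 0.987, limma), and the table has 1 value per gene, so the loxP-flanked part could not be read alone. Every direction given here is between the libraries as labelled. All 10 fibroblast markers were found, and 6 of them did not overlap between the lines, all lower under the MEF Nf2 KO label: Pdgfra, Thy1, Dcn, Lum, Vim and S100a4. Of the 14070 genes with at least 10 reads in 3 or more libraries, 15.9% did not overlap between the lines. The markers summed to 1989 to 2782 RPKM in MEF WT and to 1386 to 1946 RPKM under the MEF Nf2 KO label. In bulk RNA, fewer cells of a type and less RNA per cell cannot be told apart. Of other cell types, macrophage markers summed to 8.85 to 11.9 and 6.90 to 9.34 RPKM, mostly Cd68 and Cd14, with the defining Adgre1 and Ptprc at no more than 0.0202 RPKM. Outside the fibroblast list, 2 macrophage markers (Csf1r and Itgam) and 1 endothelial marker (Cdh5) were also apart between the lines. Each was lower under the MEF Nf2 KO label and at no more than 0.162 RPKM in every library. Summed levels were 0.879 to 6.63 and 0.850 to 3.11 RPKM for skeletal muscle, 1.46 to 3.89 and 1.52 to 4.46 for endothelial, 0.315 to 0.758 and 0.341 to 0.960 for epithelial, 7.85 to 14.4 and 7.77 to 20.3 for cartilage, 2.44 to 3.91 and 1.82 to 2.61 for fat, and 84.8 to 99.0 and 51.0 to 90.3 for neural and glial markers, the last mostly Nes. The part of these markers in the results was not tested.

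The 11067 genes that reached 1 RPKM in at least 3 libraries were compared between the lines by limma (two-sided) after a log2(RPKM + 1) transformation, and p-values were adjusted over all of them by Benjamini-Hochberg, with a threshold of 0.05. In that fit 117 genes passed, 1.06% of those tested. Only 4 members were abundant enough to be tested, Igf1r, Irs1, Irs2 and Igfbp7, and 0 of them passed. The unadjusted p was under 0.05 for 2 of these 4, and for 1097 of all 11067 genes. Same-numbered libraries of the 2 lines deviated together, and 833 genes passed once the fit had a block for the replicate number (7.53%, with 2.99% higher and 4.54% lower under the MEF Nf2 KO label), among them 1 member, Irs1. All 10 members could be tested by limma's voom on the recovered reads, a fit chosen after the table was seen. It tested the 14070 genes with at least 10 reads in 3 or more libraries and called 229 of them (1.63%), including Igfbp2 and Igfbp5. Igfbp2 met that filter only through the libraries labelled MEF Nf2 KO, and Igfbp5 only through MEF WT. Under the MEF Nf2 KO label Igfbp5 reached 10 reads in replicate 3 alone. Igfbp4 and Igfbp6 reached 10 reads in every MEF WT library and, under the MEF Nf2 KO label, in replicates 1 and 3. The number of members called therefore supports nothing by itself. With the replicate block it called 1677 genes (11.9%, with 4.65% higher and 7.27% lower), and 8 members, 5 higher and 3 lower. The lines did not overlap in 5 of the 10 members, and in 15.9% of the genes of that fit. Fold changes from the first fit are on the log2(RPKM + 1) scale, which understates changes of low genes, and those from the second are on the scale of log2 reads after division by library size.

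**Figure D1:**
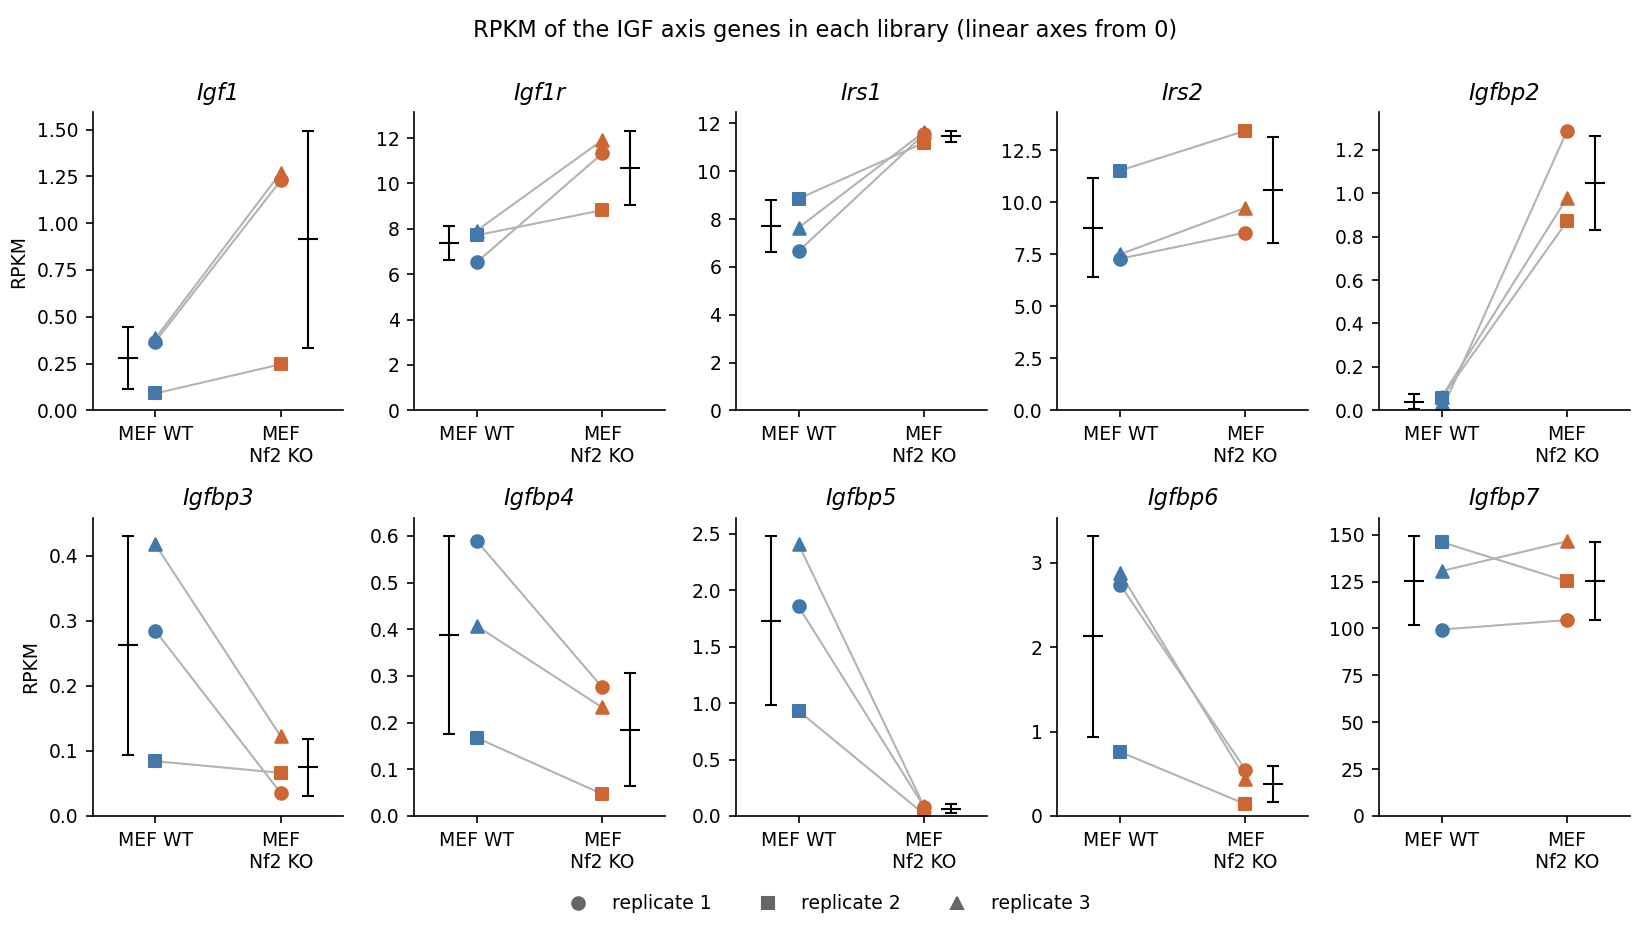
RPKM (vertical axes, linear from 0) of the 10 genes in the 3 MEF WT libraries (blue) and the 3 libraries labelled MEF Nf2 KO (orange). Marker shapes give the replicate number, grey lines join libraries of the same number, and black bars are the mean and SD of 3 libraries. Igfbp2 stands between 0 and 0.0619 RPKM in MEF WT and between 0.870 and 1.29 RPKM under the MEF Nf2 KO label, and Igfbp5 shows the opposite order.

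The ligand gene Igf1, at chr10:87858265-87937042 on the plus strand of GRCm38, was read at low levels in both lines. This and the other gene positions are from GENCODE vM21. Its level was 0.368, 0.0905 and 0.384 RPKM in MEF WT replicates 1, 2 and 3, from 49, 17 and 233 reads. The libraries labelled MEF Nf2 KO had 1.23, 0.246 and 1.27 RPKM, from 220, 47 and 918 reads. Replicate 2 was the lowest library of both lines, and its value under the MEF Nf2 KO label lay below 2 of the MEF WT values, so the lines overlapped. Within replicate numbers Igf1 was 3.34-fold (95% exact counting interval 2.44 to 4.65), 2.72-fold (1.53 to 5.05) and 3.30-fold (2.85 to 3.83) higher under the MEF Nf2 KO label. These intervals, like the others here, cover counting error only. Without the block the log2 fold change was 1.72 ± 0.79 (SE), with an adjusted p of 0.490 by voom, and the exact permutation test over libraries, two-sided, gave p = 0.3, where 3 against 3 cannot go below 0.1. With the replicate block the log2 fold change was 1.70 ± 0.14 (SE) and the adjusted p 0.000691. Leaving out a single library with no block moved the log2 fold change to between 1.05 (without MEF Nf2 KO replicate 3) and 2.32 (without MEF WT replicate 3), and the adjusted p from voom ran from 0.0681 to 0.867. With a replicate number left out of both lines the adjusted p was 0.99988, 0.00103 and 0.99996 for numbers 1, 2 and 3.

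Igf2, which encodes the other IGF ligand, was not a member and went the other way. It had 2.45, 2.03 and 3.70 RPKM in MEF WT, and 0.406, 0.172 and 0.889 RPKM under the MEF Nf2 KO label. The lines did not overlap, and Igf2 passed the filter on low values only through MEF WT. Within replicate numbers MEF WT was 6.04-fold, 11.8-fold and 4.16-fold higher. The log2 fold change was -1.33 with an adjusted p of 0.0666 by limma, and the adjusted p with the replicate block was 0.00285. Igf1 was 13.0%, 4.27% and 9.40% of the summed RPKM of both ligand genes in MEF WT replicates 1, 2 and 3. Under the MEF Nf2 KO label it was 75.2%, 58.8% and 58.8%, above every MEF WT library. The summed ligand RPKM was 3.01 ± 0.999 (SD, n = 3) in MEF WT and 1.40 ± 0.893 (SD, n = 3) under the MEF Nf2 KO label.

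Igf1r, the receptor tyrosine kinase gene at chr7:67952827-68233668 on the plus strand, stood at 6.53, 7.72 and 7.92 RPKM in MEF WT. It stood at 11.3, 8.82 and 11.9 RPKM under the MEF Nf2 KO label. Every library under that label was above every MEF WT library, with replicate 2 the closest to MEF WT. The ratio within replicate numbers was 1.73 (1.63 to 1.84), 1.14 (1.08 to 1.21) and 1.50 (1.46 to 1.54). The log2 fold change was 0.47 ± 0.13 (SE), with an adjusted p of 0.246 by limma, and the adjusted p with the block was 0.0673. On recovered reads the adjusted p was 0.169 without the block and 0.0347 with it. Without replicate 2 in both lines the log2 fold change was 0.62 and the adjusted p from limma 0.0301, while without replicate 1 or 3 the adjusted p was 0.9998 in both cases.

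Irs1 and Irs2 encode the adaptors that dock on the activated receptor, and lie at chr1:82233101-82291416 and chr8:10984681-11008458, both on the minus strand. Irs1 had 6.65, 8.85 and 7.64 RPKM in MEF WT, and 11.5, 11.2 and 11.6 RPKM under the MEF Nf2 KO label. The lines were apart, and the SD was 1.10 RPKM in MEF WT and 0.237 RPKM under the MEF Nf2 KO label. Irs1 was 1.74-fold (1.60 to 1.89), 1.26-fold (1.18 to 1.35) and 1.52-fold (1.47 to 1.58) higher within replicate numbers. Its log2 fold change was 0.52 ± 0.11 (SE), with an adjusted p of 0.117 by limma and 0.0299 with the replicate block, and with no block 0.813, 0.0203 and 0.949 without replicate 1, 2 or 3 in both lines. On recovered reads the adjusted p of Irs1 was 0.0715 by voom. With a single library left out it was 0.0316 without MEF WT replicate 2, and 0.103 to 0.292 without any other. Irs2 had 7.30, 11.5 and 7.51 RPKM in MEF WT and 8.55, 13.4 and 9.74 RPKM under the MEF Nf2 KO label. Replicate 2 was the highest library of both lines for Irs2, and the lines overlapped. The ratio of Irs2 within replicate numbers was 1.17 (1.06 to 1.30), 1.17 (1.08 to 1.25) and 1.30 (1.24 to 1.36). Its log2 fold change was 0.25 ± 0.22 (SE), with an adjusted p of 0.888 by limma and 0.0824 with the block. On recovered reads the adjusted p of Irs2 was 0.0479 with the block.

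Igfbp2 and Igfbp5 encode binding proteins with high affinity for both IGFs, and the genes lie tail to tail on chromosome 1. In GRCm38 with GENCODE vM21 annotation, Igfbp2 is at chr1:72824503-72852474 on the plus strand and Igfbp5 at chr1:72857932-72874884 on the minus strand, with 5.5 kb between their ends. The 250 bases before each start are shown because this pair of neighbours differed in opposite directions, and those of Irs1 because it was the only member past the threshold with the block on RPKM. They are RefSeq promoters on GRCm38.p6, read 5′ to 3′ on the gene's strand, at chr1:72824230-72824479 (plus, the first of 2 starts listed for Igfbp2), chr1:72874866-72875115 (minus) and chr1:82291440-82291689 (minus). Capitals mark the TEAD motif GGAATG or its reverse complement CATTCC.
Igfbp2: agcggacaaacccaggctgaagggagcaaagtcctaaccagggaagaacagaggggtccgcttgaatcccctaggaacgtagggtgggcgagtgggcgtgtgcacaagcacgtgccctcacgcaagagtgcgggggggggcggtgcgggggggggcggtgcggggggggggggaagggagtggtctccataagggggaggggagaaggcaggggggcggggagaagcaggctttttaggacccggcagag
Igfbp5: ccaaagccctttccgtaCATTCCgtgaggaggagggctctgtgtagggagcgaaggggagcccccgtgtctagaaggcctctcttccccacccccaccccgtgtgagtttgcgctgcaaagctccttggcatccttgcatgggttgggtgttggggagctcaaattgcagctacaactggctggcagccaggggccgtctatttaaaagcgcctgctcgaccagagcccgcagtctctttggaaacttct
Irs1: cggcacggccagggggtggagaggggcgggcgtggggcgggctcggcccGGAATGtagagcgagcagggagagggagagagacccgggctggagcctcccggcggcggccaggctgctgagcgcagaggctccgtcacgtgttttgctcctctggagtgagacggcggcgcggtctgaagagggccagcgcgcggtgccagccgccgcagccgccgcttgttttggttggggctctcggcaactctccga
The motif began 233 bases before the Igfbp5 start and 201 bases before the Irs1 start. Of the 11 starts listed for the 10 members these were the 2 with a match, and 12.6% of all 32851 RefSeq promoter windows of that length had one. The FOXO motif GTAAACA, searched on both strands, was in 0 of the 11 windows and in 3.17% of all windows. G and C made up 67.2%, 58.8% and 72.4% of the windows printed for Igfbp2, Igfbp5 and Irs1, and the median of all windows was 52.4%. The letters say nothing about whether a factor binds there.

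Igfbp2 had 0, 2 and 7 reads in MEF WT replicates 1, 2 and 3, or 0, 0.0571 and 0.0619 RPKM. For replicate 1 with no read, the floor of 3 reads is 0.121 RPKM and the exact 95% upper limit 0.148 RPKM. The libraries labelled MEF Nf2 KO had 43, 31 and 132 reads, or 1.29, 0.870 and 0.978 RPKM. Those were all above the MEF WT libraries, and their counting intervals, 0.932 to 1.74, 0.592 to 1.24 and 0.819 to 1.16 RPKM, overlapped with each other and with none of MEF WT. Within replicate 1 Igfbp2 was 10.7-fold higher under the MEF Nf2 KO label when MEF WT is set to that floor. The exact lower limit of that ratio was 8.31. Igfbp2 was 15.2-fold (3.88 to 131) higher in replicate 2 and 15.8-fold (7.45 to 40.1) higher in replicate 3. The gene passed the filter on reads only through the libraries where it was high. Its fitted log2 fold change, which depends on the prior count, was 4.43 ± 0.52 (SE), with an adjusted p of 0.0162 by voom, and with the block the adjusted p was 0.00275. Leaving out a single library ended that call for MEF WT replicate 1 (adjusted p = 0.0531) and replicate 3 (adjusted p = 0.0785), and for the libraries labelled MEF Nf2 KO replicate 1 (adjusted p = 0.0771) and replicate 3 (adjusted p = 0.0973).

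Igfbp5 had 1.86, 0.931 and 2.41 RPKM in MEF WT, from 150, 106 and 884 reads. In the libraries labelled MEF Nf2 KO it had 0.0828, 0.0173 and 0.0888 RPKM, from 9, 2 and 39 reads. The lowest MEF WT library was far above the highest under the other label, and replicate 2 was the lowest of both lines. MEF WT was 22.4-fold (11.5 to 49.9), 53.9-fold (14.6 to 451, from 2 reads under the other label) and 27.1-fold (19.6 to 38.3) higher within replicate numbers. Igfbp5 passed the filter on reads only through MEF WT, where it was high. Its fitted log2 fold change was -4.85 ± 0.73 (SE), with an adjusted p of 0.0263 by voom, and with the block it was -4.76 ± 0.27 (SE), with an adjusted p of 0.000256. Without MEF WT replicate 1 or 3 the adjusted p was 0.0899 or 0.0785, and without replicate 1 or 3 of the libraries labelled MEF Nf2 KO it was 0.104 or 0.182.

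**Figure D2:**
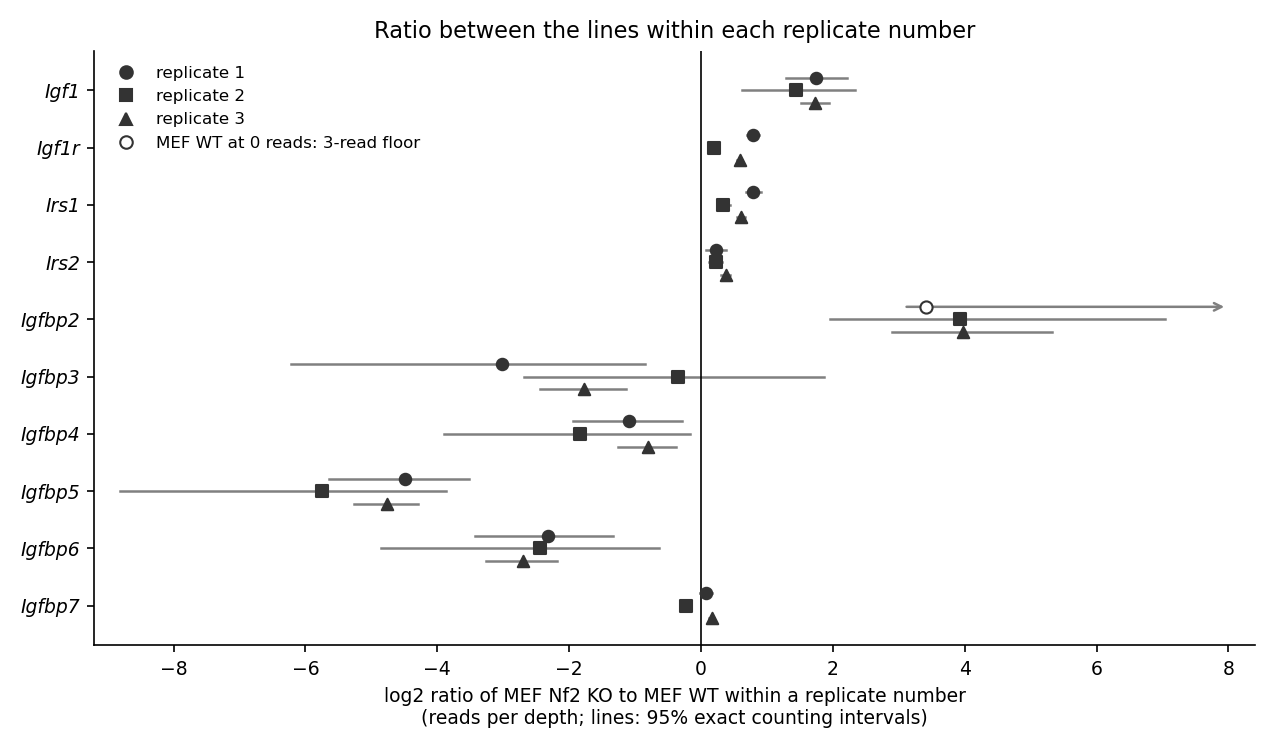
Ratio of the library labelled MEF Nf2 KO to the MEF WT library of the same replicate number for each of the 10 genes (horizontal axis, log2 of reads per depth), with 95% exact counting intervals as lines. The open marker is Igfbp2 in replicate 1, where MEF WT had 0 reads and the ratio is drawn at the 3-read floor. Igfbp2 and Igfbp5 lie farthest from 0 on opposite sides, and Igfbp7 has points on both sides of 0.

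Igfbp6, at chr15:102144362-102149511 on the plus strand, encodes a binding protein that prefers IGF2. It had 2.74, 0.759 and 2.88 RPKM in MEF WT, and 0.547, 0.140 and 0.443 RPKM under the MEF Nf2 KO label, the last 3 from 11, 3 and 36 reads. The lines did not overlap, although MEF WT replicate 2 came near the highest library under the other label. MEF WT was 5.01-fold (2.53 to 10.8), 5.42-fold (1.55 to 29.1) and 6.50-fold (4.54 to 9.55) higher within replicate numbers, a narrow range beside the intervals. The log2 fold change was -2.46 ± 0.70 (SE), with an adjusted p of 0.175 by voom and 0.00167 with the block, and with no block 0.716, 0.00277 and 0.99996 without replicate 1, 2 or 3 in both lines. Leaving out MEF WT replicate 2 alone gave an adjusted p of 0.0188 by voom, and leaving out any other single library gave 0.246 to 0.547. The exact permutation test gave p = 0.1, the smallest possible, for each of Igfbp2, Igfbp5 and Igfbp6.

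Igfbp3, at chr11:7206086-7213923 on the minus strand, encodes the main IGF carrier of serum and was near the limit of reading. It had 0.285, 0.0842 and 0.417 RPKM in MEF WT from 12, 5 and 80 reads, and 0.0353, 0.0663 and 0.122 RPKM under the MEF Nf2 KO label from 2, 4 and 28 reads. The lines overlapped through MEF WT replicate 2. MEF WT was 8.06-fold (1.79 to 74.1) higher in replicate 1 and 3.41-fold (2.19 to 5.45) higher in replicate 3, while in replicate 2 the ratio was 1.27 (0.274 to 6.41) and no difference was detectable at this depth. The adjusted p was 0.451 by voom and 0.0375 with the block, and the exact permutation test gave p = 0.2.

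Igfbp4, at chr11:99041244-99054392 on the plus strand, encodes the classical substrate of PAPP-A. It had 0.589, 0.167 and 0.407 RPKM in MEF WT. Igfbp4 had 0.275, 0.0470 and 0.232 RPKM under the MEF Nf2 KO label, and the lines overlapped. MEF WT was 2.14-fold (1.22 to 3.82), 3.56-fold (1.12 to 14.9) and 1.75-fold (1.29 to 2.38) higher within replicate numbers. The gene did not pass in any fit, with an adjusted p of 0.684 by voom, 0.0514 with the block, and p = 0.3 in the exact permutation test. Of its 31-base stretches 5.78% also occur in other genes, against at most 0.243% for the other members, so its reads are less certain.

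Igfbp7, at chr5:77349240-77408041 on the minus strand, encodes a secreted matrix protein that binds IGFs weakly. Its level was 99.4, 146 and 131 RPKM in MEF WT and 104, 125 and 146 RPKM under the MEF Nf2 KO label. Both lines spanned the same range, with means of 125 ± 23.7 and 125 ± 21.0 RPKM (SD, n = 3). The ratio within replicate numbers was 1.05, 0.857 and 1.12. The log2 fold change was 0.0043 ± 0.19 (SE), with an adjusted p of 0.998 by limma and stayed far from the threshold with the block (adjusted p = 0.984). Exons of Igfbp7 overlap Polr2b on the opposite strand, those of Irs1 overlap Gm9747 and those of Irs2 overlap 9530052E02Rik. The highest levels of these partners were 26.2, 3.49 and 0.0402 RPKM, and reads of overlapping genes cannot be told apart where the strand setting is not given.

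Igfbp7 made up 94.8% to 98.7% of the summed RPKM of the 6 binding protein genes in MEF WT and 97.9% to 99.1% under the MEF Nf2 KO label. The remaining 5 genes, Igfbp2 to Igfbp6, encode the high-affinity binding proteins and summed to 5.47, 1.998 and 6.17 RPKM in MEF WT, and to 2.23, 1.14 and 1.86 RPKM under the MEF Nf2 KO label. Their means were 4.55 ± 2.23 and 1.74 ± 0.553 RPKM (SD, n = 3), and the lines overlapped through MEF WT replicate 2. The makeup of this sum also differed. Igfbp2 was 0%, 2.86% and 1.00% of it in MEF WT and 57.8%, 76.3% and 52.4% under the MEF Nf2 KO label. Igfbp5 was 33.9%, 46.6% and 39.0% in MEF WT against 3.72%, 1.51% and 4.77%. Igfbp6 was 50.1%, 38.0% and 46.6% in MEF WT against 24.6%, 12.3% and 23.8%. Igfbp3 and Igfbp4 kept overlapping shares, with means of 5.40% and 4.65% for Igfbp3 and 8.58% and 9.65% for Igfbp4. The leading gene of the sum was Igfbp6 or Igfbp5 in each MEF WT library and Igfbp2 in each library labelled MEF Nf2 KO. The ratio of Igf1 RPKM to that sum was 0.0672, 0.0453 and 0.0623 in MEF WT and 0.551, 0.216 and 0.681 under the MEF Nf2 KO label. These sums are of RNA levels over chosen genes and were given no test.

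**Figure D3:**
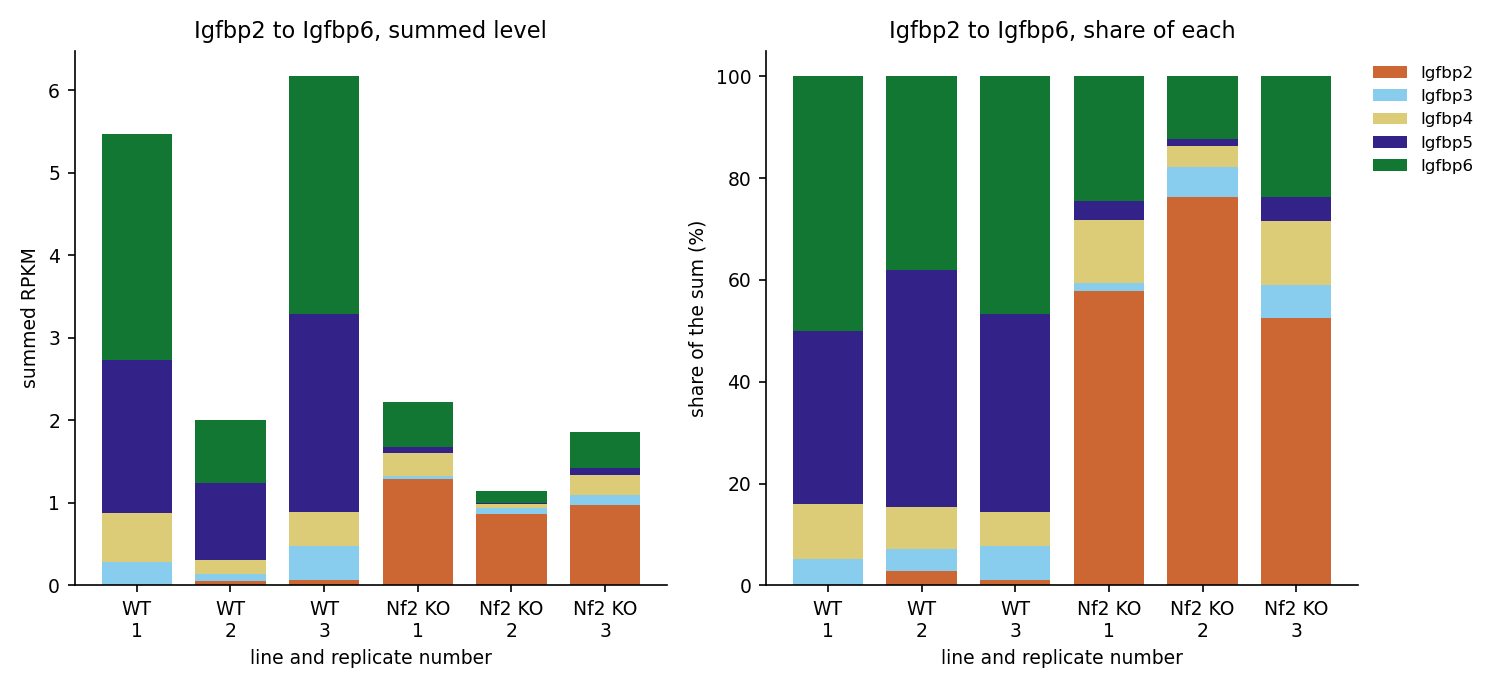
Summed RPKM of Igfbp2 to Igfbp6 (left) and the percent share of each gene in that sum (right) in each of the 6 libraries, by line and replicate number. The Igfbp2 share runs from 0% to 2.86% in MEF WT and from 52.4% to 76.3% under the MEF Nf2 KO label.

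Ordered by mean RPKM, the members of MEF WT ran Igfbp7, Irs2, Irs1, Igf1r, Igfbp6, Igfbp5, Igfbp4, Igf1, Igfbp3 and Igfbp2. Igfbp7 lay apart from Irs2, Igf1r from Igfbp6, Igfbp5 from Igfbp4 and Igfbp3 from Igfbp2, and every other pair of neighbours overlapped between libraries. Under the MEF Nf2 KO label the order was Igfbp7, Irs1, Igf1r, Irs2, Igfbp2, Igf1, Igfbp6, Igfbp4, Igfbp3 and Igfbp5. There Igfbp7 lay apart from Irs1 and Irs2 from Igfbp2, while all other neighbours overlapped. Igfbp2 stood last of 10 in MEF WT and in place 5 under the MEF Nf2 KO label, and Igfbp5 went from place 6 to last.

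Replicate 2 differed from replicates 1 and 3 in several members, in both lines. Igf1 was 4.15-fold lower there than the mean of replicates 1 and 3 in MEF WT and 5.08-fold lower under the MEF Nf2 KO label. Igfbp6 was 3.70-fold and 3.54-fold lower, Igfbp4 2.98-fold and 5.41-fold lower, and Igfbp5 2.29-fold and 4.97-fold lower. Igfbp3 was 4.17-fold lower in MEF WT and 1.19-fold lower under the other label, from 5 and 4 reads. Irs2 was 1.56 and 1.47 times higher in replicate 2. For Igf1 both of these ratios exceeded the ratio of the line means, 3.26. For Igfbp4 both exceeded 2.10, and for Irs2 both exceeded 1.21. What set replicate 2 apart was not tested.

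Another 77 genes of the pathway were listed from general knowledge, 74 of which were in the table and 61 abundant enough for the fit on RPKM. Of these 1 passed, Pappa2, and with the block 9 passed, 4 higher and 5 lower, beside the 7.53% of all genes. On recovered reads 2 of 67 passed, Pappa2 and Grb14, and 14 with the block, 5 higher and 9 lower, beside 11.9% of all genes. The median log2 fold change of the 61 genes was -0.068, with 21 higher and 40 lower, while over all 11067 genes it was -0.0078, with 5304 higher and 5763 lower.

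The binding protein proteases held the largest fitted difference of the lists. Pappa2, which encodes a protease for IGFBP3 and IGFBP5, had 0.115, 0.0359 and 0.122 RPKM in MEF WT and 3.26, 1.71 and 2.23 RPKM under the MEF Nf2 KO label. It rose 28.2-fold (17.2 to 49.6), 47.6-fold (22.9 to 119) and 18.3-fold (14.5 to 23.3) within replicate numbers. The log2 fold change was 1.62 ± 0.18 (SE), with an adjusted p of 0.0217 by limma, and the gene passed the filter on RPKM only through the libraries where it was high. On RPKM no gene of the lists passed when MEF WT replicate 1 or 3, or replicate 1 or 3 of the libraries labelled MEF Nf2 KO, was left out. Of the 7 genes of this list 4 were tested on RPKM, and 3 passed with the block, beside 7.53% of all genes. These were Pappa2, higher, and Htra1 and Adam12, both lower. Adam12 and Pappa met the filter on RPKM only through MEF WT. Htra1, a serine protease gene, had 25.6 ± 6.10 RPKM in MEF WT and 15.1 ± 5.21 under the MEF Nf2 KO label (SD, n = 3), with an adjusted p of 0.422 by limma and 0.0176 with the block. Adam12, a metalloprotease gene, had 2.68 ± 1.41 and 1.18 ± 0.688 RPKM (SD, n = 3), with adjusted p of 0.520 and 0.00907. Pappa, the paralog of Pappa2, had 1.25 ± 0.0988 and 0.757 ± 0.0528 RPKM (SD, n = 3), in the opposite direction to Pappa2, with adjusted p of 0.254 and 0.0714 on RPKM and 0.00567 with the block on recovered reads.

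Among the other receptors Igf2r, which clears IGF2, had 42.4 ± 12.8 RPKM in MEF WT and 37.2 ± 11.3 under the MEF Nf2 KO label (SD, n = 3, adjusted p = 0.969, limma). The insulin receptor gene Insr had 2.31 ± 0.152 and 2.56 ± 0.519 RPKM (SD, n = 3, adjusted p = 0.952, limma), and neither passed with the block. None of the other binding proteins and carriers (1 of 5 tested) or the clearance receptors (3 of 3 tested) passed in any of the 4 fits, and 0 of them had an unadjusted p under 0.05 on RPKM.

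Of 18 adaptors and inhibitors at the receptor, 14 were tested on RPKM. With the block 2 passed, 1 higher and 1 lower, beside 7.53% of all genes. Grb14, which encodes an adaptor that inhibits the insulin receptor, had 2.85, 2.81 and 4.71 RPKM in MEF WT and 1.16, 1.02 and 1.06 RPKM under the MEF Nf2 KO label. The lines were apart, and the log2 fold change was -1.07 with an adjusted p of 0.0533 by limma, 0.0153 with the block and 0.0253 by voom. The docking protein gene Gab1 had 6.18 ± 0.312 and 8.37 ± 0.423 RPKM (SD, n = 3), with adjusted p of 0.135 by limma and 0.0223 with the block. Irs3, a low-abundance relative of Irs1, had 0.361 ± 0.139 and 0.101 ± 0.0609 RPKM (SD, n = 3) and passed with the block on recovered reads (adjusted p = 0.0191), having met the filter on reads only through MEF WT.

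All 21 genes of PI3 kinase, AKT and mTOR were tested, and 2 passed with the block on RPKM. That share is near the 7.53% of all genes that passed in either direction. Both were higher, and 2.99% of all genes passed higher. Pik3cb, which encodes a catalytic subunit of PI3 kinase, had 9.43 ± 1.19 RPKM in MEF WT and 13.9 ± 1.36 under the MEF Nf2 KO label (SD, n = 3), with adjusted p of 0.157 by limma and 0.0324 with the block. Rictor, a defining subunit of the second mTOR complex, had 6.53 ± 0.434 and 10.2 ± 1.13 RPKM (SD, n = 3), with adjusted p of 0.0831 and 0.0197.

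Of the 4 FOXO genes 3 were tested and 0 passed in any of the 4 fits, with 0 at an unadjusted p under 0.05 on RPKM. Of 13 FOXO target genes 12 were tested on RPKM, and 1 passed with the block, Bcl2l11. That share is again near the 7.53% of all genes that passed in either direction, 4.54% of them lower. Bcl2l11 was lower. It encodes the cell death protein BIM and had 5.43 ± 2.09 RPKM in MEF WT and 3.71 ± 1.33 under the MEF Nf2 KO label (SD, n = 3), with adjusted p of 0.828 by limma and 0.0450 with the block. On recovered reads with the block, Cited2, a transcriptional coregulator gene, passed higher (adjusted p = 0.0197) and Bcl6, a repressor gene, passed lower (adjusted p = 0.0351). The median log2 fold change of the 12 target genes was -0.19, with 5 higher and 7 lower.

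**Figure D4:**
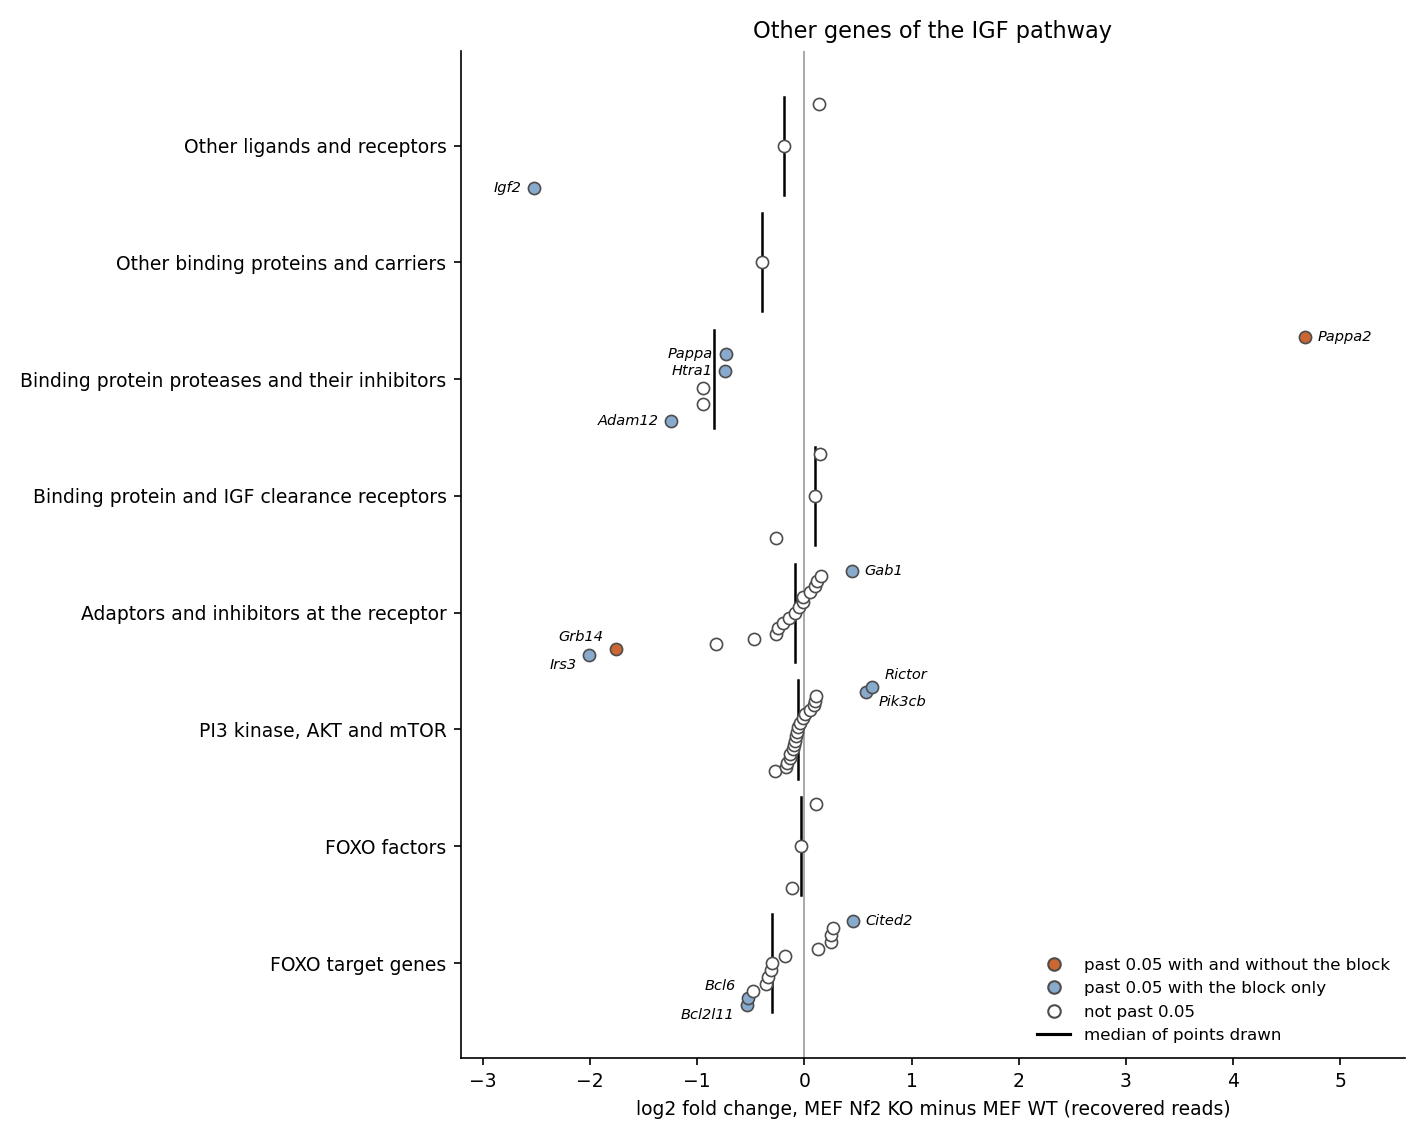
Log2 fold change between the lines (horizontal axis, libraries labelled MEF Nf2 KO minus MEF WT, voom on recovered reads) of 66 of the 67 tested genes of the 8 pathway lists, 1 point per gene. Orange points passed 0.05 with and without the replicate block, blue points only with it, white points in neither, and black lines are medians of the points drawn. Pappa2 stands far to the right of its list and Igf2 far to the left.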

How the data were processed

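RNA of both fibroblast lines was sequenced and analysed by GENEWIZ. The authors deposited 1 table of RPKM values, 1 column per library with replicates not pooled. The unit was inferred from the values, which sum to 250088 to 263424 per library. The submitters' processing notes name mm10, and the aligner, counting tool, strand setting and annotation are not given in the sources used here, nor whether single reads or read pairs were counted. RPKM steps with GENCODE vM21 exon lengths (25986 genes) gave the reads per library. Of the values of up to 20 reads, 83.4% to 85.3% were whole within 0.05 read, against 10% for an even spread.

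The lines were compared with limma 3.58.1 (R 4.3.3), using eBayes with the trend and robust options, on log2(RPKM + 1), and with limma's voom on the recovered reads, chosen after the table was seen. Counting intervals are exact at 95%, and the floor is 3 reads. The scripts were tested on simulated data. Members and gene lists were chosen with earlier results of these data known, and the pathway and marker lists come from general knowledge. Named were all members, the list genes past the threshold on RPKM without or with the block, Igf2, Igf2r, Insr and Nf2. List genes past it on recovered reads were added after their values were seen. The 3 nearest profiles were to be named for members past the threshold on RPKM without the block, and no member passed there. Libraries with the same number, which the labels give to both lines, deviated from their line's mean together across genes (r = 0.552, 0.819 and 0.516 for replicates 1, 2 and 3) and were taken as pairs. Alternatives were other scalings, filters, thresholds, the block, the 2018 mark as a covariate, and left-out libraries. Since the deposited values are RPKM, no negative binomial count test was run, and limma's voom was the only test of reads. Ins1, Ins2 and Igfbp1 were not analysed here, and 1 further list gene, which the counts include, is not reported here.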

Additional observations from a re-analysis of the deposited data

How the results depend on the processing

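The number of genes past the threshold, 117 on RPKM, was 9 with no filter, where more genes were tested, 63 with a filter of 5 RPKM, 62 with the 2018 mark as a covariate, 9 at an adjusted p under 0.01, 229 by voom on recovered reads, and between 0 and 484 with libraries left out. The 0 came without replicate 1 or without replicate 3 (578 and 556 genes at an unadjusted p under 0.05) and the 484 without replicate 2. Members past the threshold, 0 on RPKM (2 at an unadjusted p under 0.05), were 2 by voom and 0 to 2 with libraries left out. Pathway genes, 1 on RPKM, were 2 without trend and robust settings, with quantile normalization, with median centring, with a pseudocount of 0.1, with the 2018 covariate and by voom, 0 with no filter, with a filter of 5 RPKM and at an adjusted p under 0.01 (14, 4 and 9 at an unadjusted p under 0.05), and 0 to 8 with libraries left out. The cause of these shifts was not tested. On recovered reads, leaving out libraries gave 0 to 984 genes instead of 229, 0 to 6 members instead of 2 and 0 to 10 pathway genes instead of 2.

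With the replicate block, which treats same-numbered libraries as pairs, the counts were 833 genes, 1 member and 9 pathway genes on RPKM, and 1677 genes, 8 members and 14 pathway genes on recovered reads.

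Igfbp7 alone among the members changed sign under the alternatives run, always close to 0. Its log2 fold change of 0.0043 became -0.00071 by voom and -0.0054 by voom with the block, and ran from -0.15 to 0.13 with libraries left out on RPKM and from -0.15 to 0.12 on recovered reads. The difference between the lines in the summed RPKM of Igfbp2 to Igfbp6 was -2.80, or -2.75 with the libraries scaled by their median ratio and -3.77 to -2.05 with a replicate number left out. The Igfbp2 share differed by 60.9 percentage points, or 54.6 to 65.6 with a replicate number left out. Igf1 and Igfbp2 to Igfbp6 had under 20 reads in at least 1 library of replicates 1 or 2 and are limited by depth there.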
